A study of Danio rerio with 68 samples.

Results

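The results below concern the livers of old, rotenone-exposed zebrafish, sampled after 8 weeks of exposure and compared with livers sampled after 3 weeks. Members were chosen by their labels: liver, an age of 36 months, 3.75 nM rotenone, and a duration of 8 weeks (6 libraries) or 3 weeks (4 libraries). These 10 libraries are among 68 in the series, and every gene with enough reads was tested in them (20190 of 32677). The study sequenced RNA of 3 organs (brain, liver, skin) from male zebrafish aged 12 or 36 months and kept in tanks with rotenone or with the solvent DMSO. Part of the tank water was renewed regularly, each time with fresh agent. The treated fish were all 36 months old. Their controls were 36-month fish in DMSO, with 2 livers at 3 weeks and 3 at 8 weeks, and 12-month fish in DMSO, with 2 livers at 3 weeks and 3 at 8 weeks. No strain, genotype or number of tanks is given in the labels, and the series text calls the samples of a group biological replicates. The length of exposure, the sampling day and the exact age at sampling differ together between the 2 groups and cannot be told apart, and any effect of a shared tank cannot be told apart from them either.

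Rotenone is a plant-derived inhibitor of complex I, the entry point for NADH in the mitochondrial respiratory chain. The liver makes fatty acids and cholesterol when sugar is plentiful and oxidises fatty acids when it is scarce, and the transcripts for these pathways follow feeding, hormones and the daily clock. It also secretes most plasma proteins and relies heavily on protein folding, on the proteasome and on mRNA splicing.

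Levels are given in CPM, the unit of scaled read counts, meaning the reads of a gene relative to the reads of its library after scaling for library composition. Differences are log2 fold changes of 8 over 3 weeks with their standard error, so that a negative value means a lower level at 8 weeks. A gene is said to have risen or fallen where its p-value from edgeR's quasi-likelihood test, adjusted over all 20190 genes by the Benjamini-Hochberg method, was under 0.05. Values of the 3-week livers are listed in the order of replicates 1 to 4.

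The 10 treated livers held 32868207 to 45233241 counted reads each. Hepatocyte markers, such as the plasma protein and lipid carrier genes, took 15.42 to 18.62% of the reads at 3 weeks and 19.75 to 23.63% at 8 weeks. By this share the groups did not overlap, although 0 of the 19 markers were called. As CPM sums they did overlap, with 138600 to 189200 CPM at 3 weeks and 186000 to 313900 CPM at 8 weeks. In 12-month controls the marker sums were 113100 and 133000 CPM at 3 weeks and 230300 to 264400 CPM at 8 weeks, without overlap. In 36-month controls they were 178300 and 164800 CPM, and then 233800, 207400 and 42360 CPM. Exocrine pancreas, which in zebrafish lies among the abdominal organs, was present in the livers to very different degrees. Digestive enzyme genes and other exocrine pancreas markers took 8.81% of the reads in 8-week replicate 6. In the other 8-week livers they took 0.0299 to 1.56%, and in the 3-week livers 0.901, 3.49, 0.0516 and 0.247%. The mean log2 share differed by 0.141 between the groups (exact permutation test over the 210 regroupings of samples, two-sided, p = 0.933), and without replicate 6 by -0.69 (p = 0.683). None of the 34 tested pancreas markers was called (0 of 34), and their median log2 fold change moved from 0.99 to -0.85 when replicate 6 was left out. Markers of testis and germ cells made up 0.0164% in 3-week replicate 1 and at most 0.0016% in any other treated liver. Beyond these, 8-week replicate 3 of the 36-month controls held intestinal markers at 4.59% and hepatocyte markers at 6.2%. All 3 libraries, 8-week replicate 6, 3-week replicate 1 and this control, stand apart from their groups. Both 3-week livers of the 36-month controls were also rich in exocrine pancreas markers. Their sums were 23480 and 24960 CPM, against 2928, 2609 and 9105 CPM in the 8-week livers of these controls. Endocrine pancreas markers also varied, with sums of 913.6 CPM in 3-week replicate 2 and 1012 CPM in 8-week replicate 2. The other treated livers had at most 61.0 CPM, while 3-week replicate 1 of the 36-month controls had 1067 CPM. In pieces of tissue like these, fewer cells of a type and less RNA per cell cannot be told apart.

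**Figure D1:**
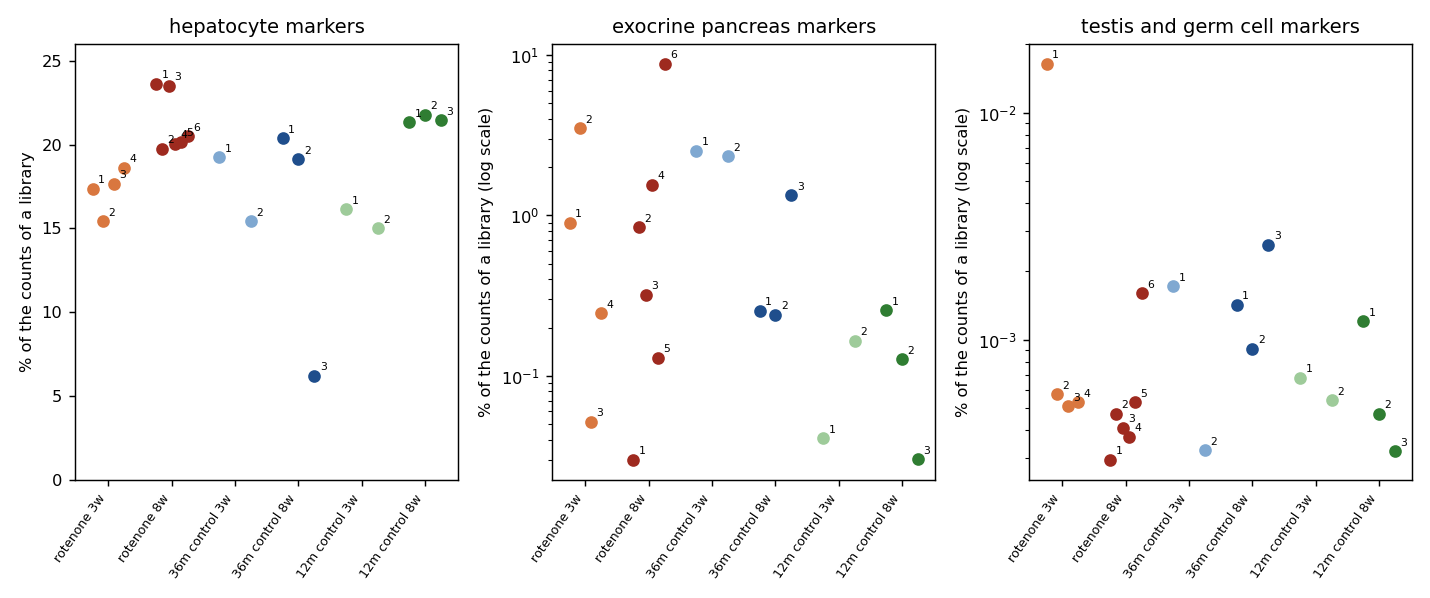
Share of a library's counted reads (%, log scale for pancreas and testis) taken by markers of hepatocytes, exocrine pancreas and testis in each of the 20 livers, with points numbered by replicate. The 8-week rotenone replicate 6 lies highest for pancreas at 8.81%, the 3-week rotenone replicate 1 highest for testis at 0.0164%, and the 8-week replicate 3 of the 36-month controls lowest for hepatocytes at 6.2%.

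Between 3 and 8 weeks of rotenone 1867 genes differed in the liver, 9.25% of those tested. Of these 628 rose (3.11%) and 1239 fell (6.14%), while the median log2 fold change over all genes was -0.025. The CPM of the 2 groups did not overlap for 2280 genes (11.3%). Among the genes that fell were some of those for cholesterol and fatty acid synthesis, sugar phosphorylation, heat shock proteins, proteasome subunits, small nuclear ribonucleoproteins and DNA replication. Those that rose included genes of fatty acid oxidation. With a trend of fold change on gene length removed, 1462 genes were called, 659 higher and 803 lower, so that 45.1% were rises against 33.6% before. Leaving out 3-week replicate 2 left 795 calls, leaving out 3-week replicate 1 left 1039, and leaving out 8-week replicate 6 left 1387. Without 3-week replicate 1 and 8-week replicate 6 together, 596 genes were called, 144 higher and 452 lower, of which 591 were among the 1867.

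**Figure D2:**
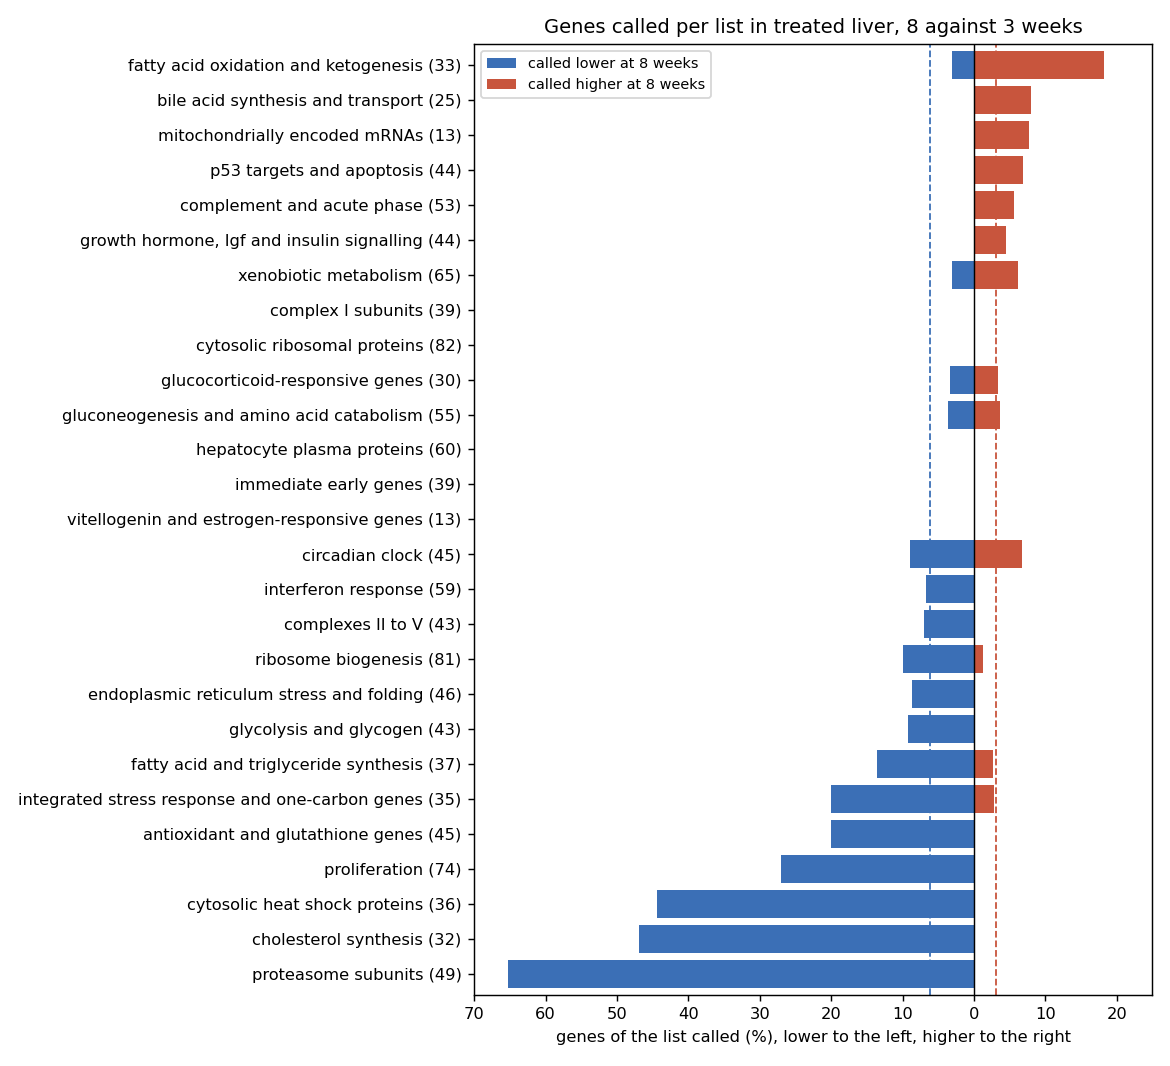
Share of each pathway list (%, number of tested genes in brackets) called lower (left, blue) or higher (right, red) at 8 against 3 weeks of rotenone. The dashed lines mark the shares over all genes tested, 6.14% lower and 3.11% higher; the longest bars are the proteasome subunits, with 32 of 49 lower, and cholesterol synthesis, with 15 of 32 lower.

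Several genes that trap glucose in the cell and turn it into fat fell steeply. Glucokinase (gck, ENSDARG00000068006), the hexokinase that in liver commits glucose to storage and glycolysis, stood at 557, 625, 129 and 872 CPM at 3 weeks and at 0.533 to 11.8 CPM with a median of 4.99 at 8 weeks. All 4 of the 3-week livers lay above all 6 of the 8-week livers, and the log2 fold change was -6.54 ± 1.37 (adjusted p = 0.00758). The related hexokinase gene hkdc1 stood at 295, 399, 211 and 374 CPM at 3 weeks and at 5.08 to 23.1 CPM at 8 weeks, again without overlap (-4.65 ± 0.61, adjusted p = 0.000421). Fatty acid synthase (fasn, ENSDARG00000087657), which builds palmitate, had 1016, 3110, 605 and 768 CPM at 3 weeks. At 8 weeks it ranged from 8.92 to 192 CPM with a median of 26.5, every value below the lowest 3-week liver, a log2 fold change of -4.74 ± 0.91 (adjusted p = 0.00487). A similar copy listed as FASN (1 of 2) gave -4.77 ± 0.92, and reads may have been divided between such copies, so that their separate values are uncertain.

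The pentose phosphate enzyme pgd, which supplies NADPH, had 155, 672, 183.4 and 173 CPM at 3 weeks and 17.8 to 55.4 CPM with a median of 34.5 at 8 weeks (-3.03 ± 0.44, adjusted p = 0.000865). The groups did not overlap, and replicate 2 was the highest of the 3-week livers. Acetyl-CoA carboxylase acaca, which makes malonyl-CoA, went from 1762, 3564, 2568 and 1899 CPM to a median of 337 CPM (range 42.0 to 528; -3.11 ± 0.82, adjusted p = 0.0252). The cytosolic acetate-activating enzyme acss2 fell by 0.92 and the lipogenic transcription factor srebf1 by 1.45. The mitochondrial carboxylase acacb, whose malonyl-CoA restrains fatty acid entry into mitochondria, rose (1.63 ± 0.45, adjusted p = 0.0312). In all, 5 of 37 tested genes of fatty acid and triglyceride synthesis fell and 1 rose, with a median of -0.13, and the sum of its levels overlapped between the groups (8325 to 16570 CPM at 3 weeks, 6660 to 14760 CPM at 8 weeks). In the glycolysis and glycogen list 4 of 43 fell, against 6.14% of all genes, and 0 rose, with a median of -0.32. Those that fell included pgd, gck and hk1. Without 3-week replicate 2, and without 3-week replicate 1 and 8-week replicate 6 together, the first list had 3 lower and 0 higher, and the rise was also not called without 3-week replicate 1 or 8-week replicate 2 or 5.

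**Figure D3:**
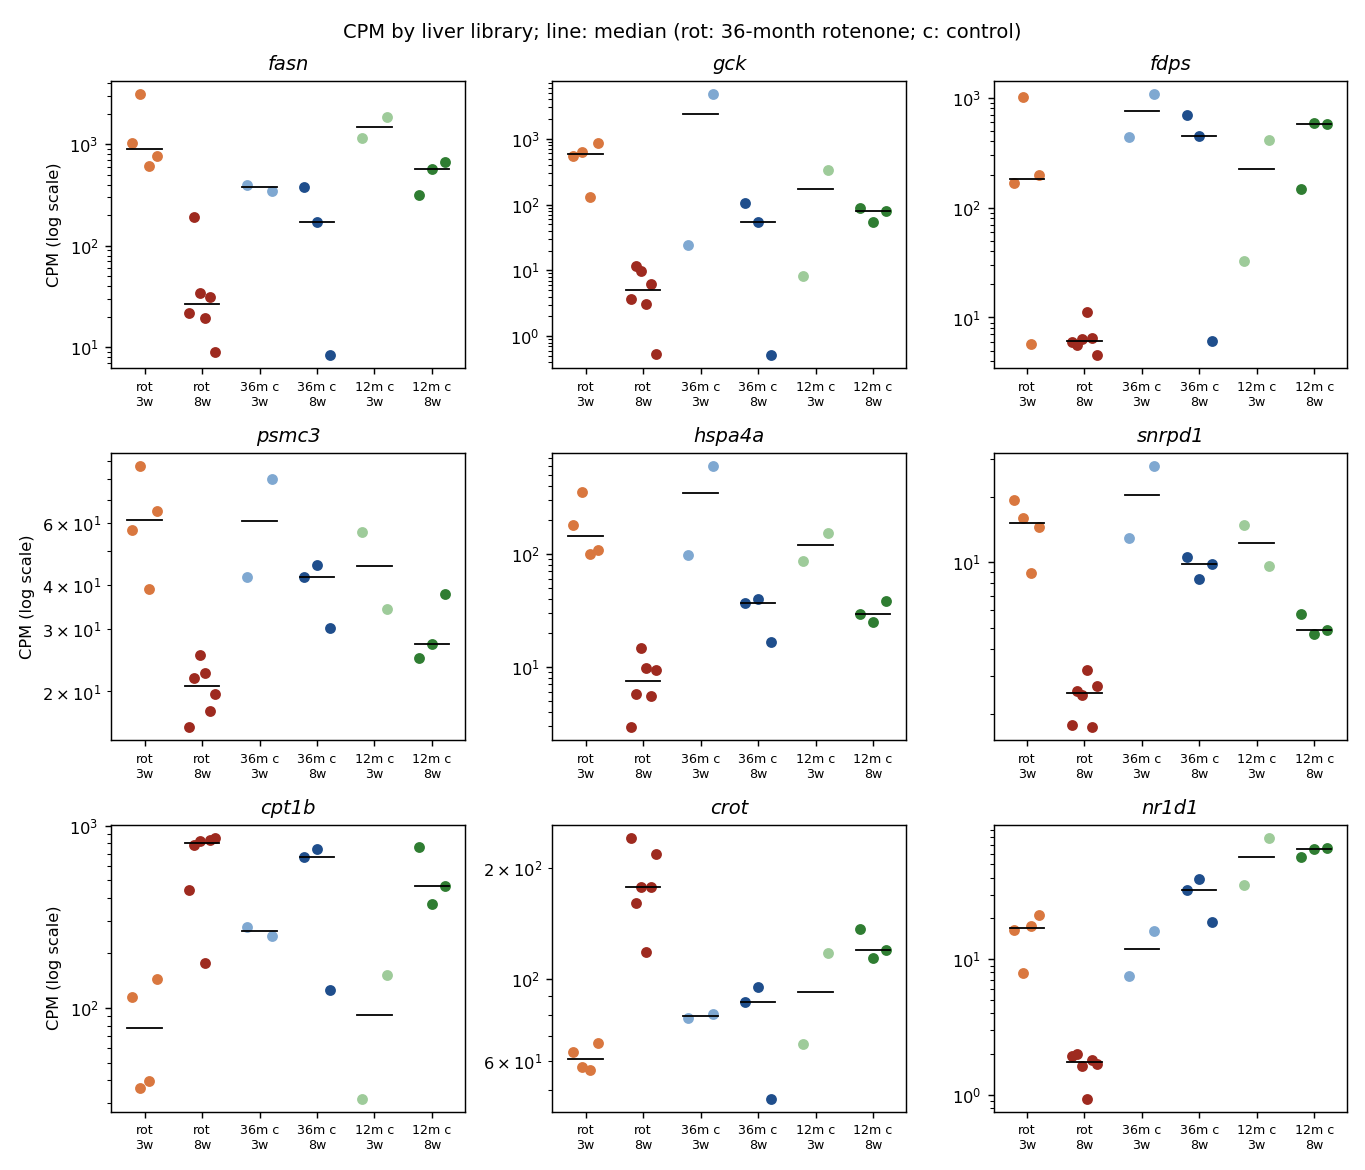
CPM (log scale) of 9 genes in each of the 20 livers, a point per library with the group median as a line (rot, 36-month rotenone; c, control of the given age). For fasn, gck, psmc3, hspa4a, snrpd1 and nr1d1 every 8-week rotenone liver lies below every 3-week rotenone liver, for cpt1b and crot every 8-week liver lies above, and for fdps the 3-week replicate 3 lies among the 8-week livers.

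Cholesterol synthesis genes fell across the pathway. Of 32 tested genes 15 fell and 0 rose, and the median log2 fold change was -2.46. The called genes ran from the start of the pathway to its end: hmgcs1 and the rate-limiting reductase hmgcra, the mevalonate enzymes mvk, mvd and MVD, then idi1 and fdps, the squalene enzymes FDFT1 and SQLE (1 of 2), the cyclase lss, and the sterol-modifying enzymes nsdhl, hsd17b7, ebp and dhcr7. The 15th was a gene that the table calls AP1M2 (2 of 2) and whose identifier now carries the symbol ldlrb, the name of an LDL receptor.

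The 3-week livers were far from uniform in these genes. Farnesyl diphosphate synthase (fdps, ENSDARG00000040890) had 168.6, 1013, 5.79 and 197 CPM at 3 weeks, against 4.55 to 11.2 CPM with a median of 6.13 at 8 weeks (-5.69 ± 1.15, adjusted p = 0.00623). For hmgcs1 the corresponding levels were 306, 3342, 8.88 and 219 CPM against 8.43 to 39.9 CPM (-5.90 ± 1.29, adjusted p = 0.00979). Replicate 2 was the highest 3-week liver and replicate 3 the lowest for 15 of the 15 called genes, and replicate 3 lay within or close to the 8-week range. Summed over the list, the 3-week livers had 2522, 12320, 923.8 and 3135 CPM and the 8-week livers 583.7 to 1280 CPM. The control livers had sums of 1400 to 14000 CPM, with the exception of 8-week replicate 3 of the 36-month controls, the library with intestinal markers, at 547.7 CPM. Every 8-week treated liver was thus below every other control liver, and 3-week replicate 3 was below them too. Without 3-week replicate 2 the median was -1.49 and 4 genes were called, and without 3-week replicate 1 and 8-week replicate 6 together 8 were called. A gene for cholesterol use moved the other way: soat2, which esterifies cholesterol for storage, had 22.2, 1.25, 48.4 and 39.8 CPM at 3 weeks and 107 to 446 CPM at 8 weeks (3.14 ± 0.82, adjusted p = 0.0239). Falls were also seen for aacs, which activates acetoacetate for lipid synthesis (-3.97 ± 1.0), and for the lipase gene lipg, with 2.01, 11.7, 43.8 and 19 CPM at 3 weeks and 0.271 to 1.6 CPM at 8 weeks (-4.82 ± 0.97).

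Brain and skin of the treated fish were fitted together with liver across all 68 libraries (25628 genes), where 730 genes were called in brain (2.85%; 1.51% higher and 1.34% lower) and 2274 in skin (8.87%; 2.54% higher and 6.33% lower). Of the 32 cholesterol genes 0 fell in either tissue over the same interval, 1 rose in brain and 2 in skin, and their median log2 fold change was 0.08 in brain and 1.28 in skin. The change in liver differed from that in brain for 2308 genes in all (9.01%), with 1107 higher (4.32%) and 1201 lower in liver (4.69%), and among them were 16 of the 32 cholesterol genes. Against skin 1031 genes differed (4.02%), 488 of them lower in liver (1.9%), and the cholesterol list held 24 of these. For fdps the difference was -5.64 ± 1.11 from brain (adjusted p = 0.000483) and -6.79 ± 1.14 from skin (adjusted p = 0.000156). Fatty acid synthase, glucokinase and hkdc1 also differed from both tissues, fasn by -4.56 ± 0.73 and -5.12 ± 0.74.

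**Figure D4:**
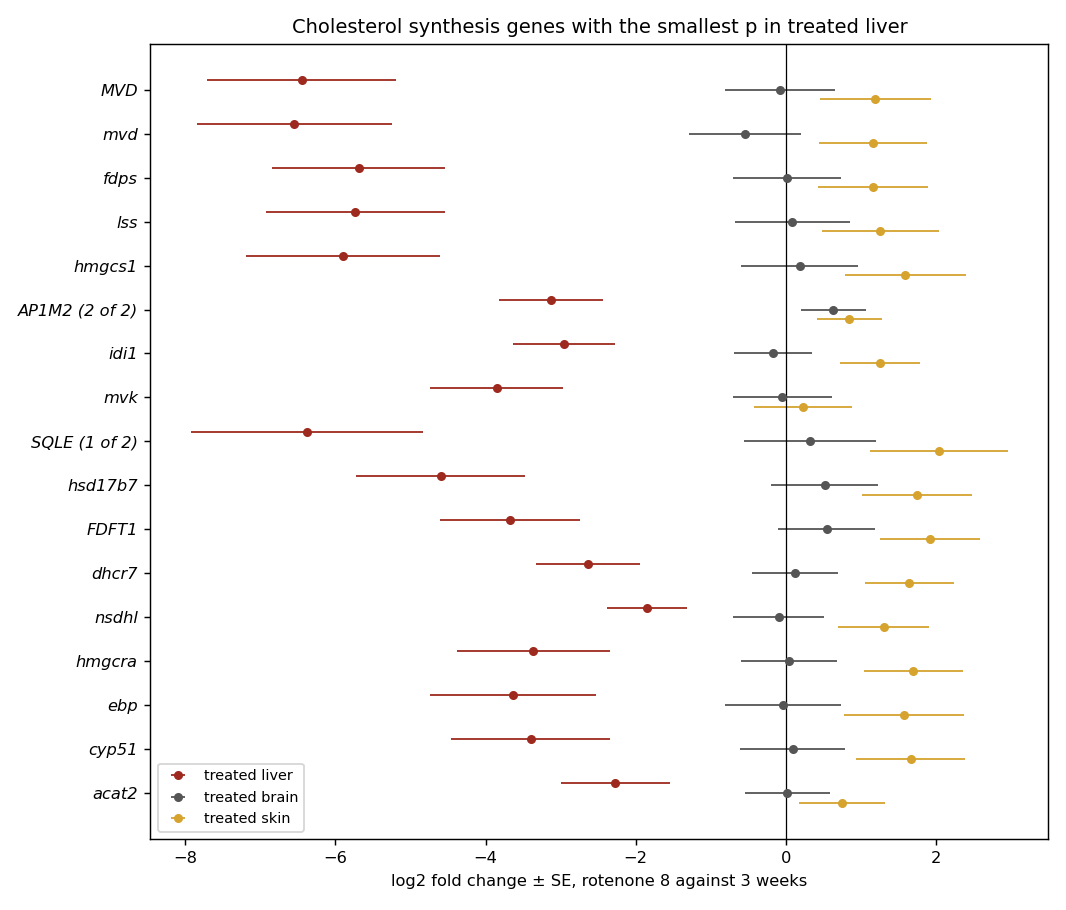
Log2 fold change ± SE of 8 over 3 weeks of rotenone for the 17 cholesterol synthesis genes with the smallest p in liver, shown for liver (red, fitted on the 20 livers), brain (grey) and skin (yellow, both fitted on all 68 libraries). Liver values lie on the negative side, such as fdps at -5.69, while the list's median was 0.08 in brain and 1.28 in skin.

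Fatty acid oxidation genes leaned toward higher levels at 8 weeks. Of 33 tested genes 6 rose and 1 fell, and 25 had values above 0, with a median of 0.41. In 36-month controls without 8-week replicate 3, 27 of the 33 were above 0 over the same interval, also with a median of 0.41. The carnitine palmitoyltransferase gene cpt1b (ENSDARG00000058285), whose product admits long-chain fatty acids into mitochondria, had 115, 36.2, 39.7 and 144 CPM at 3 weeks. At 8 weeks it ranged from 176 to 858 CPM with a median of 802, above all 3-week livers, a log2 fold change of 2.96 ± 0.64 (adjusted p = 0.00919). A second transferase of this step, CPT1A (1 of 2), rose by 1.11 ± 0.24. Carnitine octanoyltransferase (crot, ENSDARG00000040352), which carries shortened chains out of peroxisomes, had 63.6, 57.8, 56.9 and 67.2 CPM at 3 weeks and 118 to 241 CPM at 8 weeks (1.57 ± 0.24, adjusted p = 0.0012). The 3-week values were close together and the groups did not overlap.

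Further rises were those of etfdh, which passes electrons from fatty acid oxidation to ubiquinone (1.04 ± 0.20), of the mitochondrial trifunctional protein gene hadhaa (1.08 ± 0.30) and of ppargc1a, a coactivator of oxidative genes (1.86 ± 0.54). For crot and etfdh the liver change differed from that in brain and in skin, whereas for cpt1b it differed from skin (adjusted p = 0.0254) and the difference from brain did not pass (1.21 ± 0.70, adjusted p = 0.313). In bile acid synthesis and transport 2 of 25 genes rose (cyp27a1.3 and cyp27a1.4, sterol hydroxylases), against 3.11% of all genes, and 0 fell, with a median of 0.39. Neither rise was called without 3-week replicate 1 or without 3-week replicate 1 and 8-week replicate 6 together. Only 1 was called without 3-week replicate 2 or 8-week replicate 2, 5 or 6.

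Of the genes for proteins that hepatocytes secrete into plasma 0 of 60 were called, although 52 of them had values above 0 and the median was 0.37, and 3 rises were called without 3-week replicate 4. Complement and acute phase genes had 3 rises in 53, against 3.11% of all genes, with a median of 0.42. They were c4, c7a and C7 (1 of 2), components of the complement cascade. The last was very uneven, at 74.0, 17.7, 87.3 and 92.2 CPM at 3 weeks and 100.3 to 3223 CPM with a median of 202 at 8 weeks (3.37 ± 1.02, adjusted p = 0.0474), and replicate 4 alone held the highest value. No gene of this list passed when 3-week replicate 1, 2 or 4 was left out, or without 3-week replicate 1 and 8-week replicate 6 together, and 1 passed without 8-week replicate 4 or 6.

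Among 55 genes of gluconeogenesis and amino acid catabolism 2 rose and 2 fell, a share of 7.27% that was below the 9.25% of all genes, while 39 had values below 0 and the median was -0.27. Leaving out any 1 treated library left 1 or 2 rises and 1 to 3 falls. The transsulfuration enzyme cth fell from 310.1, 563, 105 and 175 CPM to between 12.6 and 35.9 CPM (-3.49 ± 0.50, adjusted p = 0.000801), and the tyrosine pathway enzyme fah fell by 1.64. Tyrosine aminotransferase tat rose (1.36 ± 0.36), as did a proline dehydrogenase copy, PRODH (3 of 3), from at most 0.874 CPM to between 1.23 and 4.81 CPM (2.36 ± 0.52).

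Respiratory chain genes, for complex I, which rotenone inhibits, and for complexes II to V, had few calls. Among 39 tested subunits of complex I 0 were called, 31 had values below 0 and the median was -0.20, and 4 falls were called without 3-week replicate 3. The smallest p belonged to ndufab1a, at -0.64 ± 0.22 (adjusted p = 0.0752). For complexes II to V 3 of 43 genes fell, against 6.14% of all genes, and the median was -0.14. The 3 were sdha and sdhb of succinate dehydrogenase and the cytochrome oxidase subunit cox6a1. Only 1 was called without 3-week replicate 1 or 2 or 8-week replicate 1, 2, 4 or 5, and with the length trend removed; 6 were called without 3-week replicate 3, and 0 without 3-week replicate 1 and 8-week replicate 6 together. All 13 of the 13 mRNAs encoded in mitochondrial DNA had values above 0, with a median of 0.72, and 1 of them, mt-cyb of complex III, passed the test (0.96 ± 0.29, adjusted p = 0.0489). When 1 treated library was left out the list had 1 call without 8-week replicate 3 or 4 and had 0 in the other 8 fits, and it had 0 with the length trend removed. In the 36-month controls the median of these 13 was 0.91 (1.15 without 8-week replicate 3) and in the 12-month controls 0.78.

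Genes for making and importing mitochondrial proteins had more. Of 77 mitochondrial ribosomal protein genes 27 fell and 0 rose, with 76 below 0 and a median of -0.72, and of 20 genes of the mitochondrial import machinery 8 fell, with a median of -1.13. The largest of these was tomm40l, a gene of the outer membrane channel family (-2.41 ± 0.39). The ribosomal protein genes were short, with a median length of 1042 bp against 2090 bp over all genes tested, and with the length trend removed 12 were called. Leaving out 3-week replicate 1 or 2 gave 11 and 10 calls, and leaving out 8-week replicate 2 or 5 gave 16 and 15. There were 42 calls without 3-week replicate 3 and 5 without 3-week replicate 1 and 8-week replicate 6 together. The import genes had 5 and 2 calls without 3-week replicate 1 or 2, and 1 without 3-week replicate 1 and 8-week replicate 6 together. These groups, like the splicing, translation, nuclear pore and mediator families below, were gathered by gene symbol after the values had been seen.

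Many chaperone genes fell. In the cytosolic heat shock list 16 of 36 fell and 0 rose, with a median of -1.02. The Hsp110-family chaperone hspa4a (ENSDARG00000004754), which recharges Hsp70 with ATP, had 178, 350.3, 99.3 and 109 CPM at 3 weeks and 2.93 to 14.7 CPM with a median of 7.52 at 8 weeks. The groups did not overlap, and the log2 fold change was -4.53 ± 0.54 (adjusted p = 0.000247). The Hsp70-Hsp90 adaptor stip1 had 95.0, 127, 82.0 and 104 CPM at 3 weeks and 20.5 to 27.4 CPM at 8 weeks (-2.08 ± 0.25, adjusted p = 0.000247).

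Others that fell were the Hsp90 partner fkbp4 (-1.54 ± 0.29), the constitutive Hsp70 gene hspa8 (-1.0 ± 0.20) and the Hsp40-type co-chaperones dnaja1l and dnajb1a. The inducible genes were scattered at 3 weeks: hsp90aa1.2 had 33.2, 97.0, 4.61 and 3.49 CPM against 1.19 to 2.75 CPM at 8 weeks (-4.20 ± 0.92, adjusted p = 0.00966). Without 3-week replicate 2 only 5 genes of the list were called, and without 3-week replicate 1 and 8-week replicate 6 together 6 were called. In 36-month controls without 8-week replicate 3 the median of the heat shock list was -0.87, with 26 of the 36 genes below 0. The genes with the smallest p in the whole comparison included 2 similar ones for the Hsp90 co-chaperone p23, PTGES3 (3 of 3) and ptges3b (-3.33 ± 0.29 and -3.29 ± 0.31, both with adjusted p = 4.94e-05), which are named here after their values were seen. Folding genes of the endoplasmic reticulum had 4 falls in 46, against 6.14% of all genes, and a median of -0.65. Among the 4 were the lectin chaperone canx (-1.76 ± 0.36) and the stress-secreted factors manf and creld2. This list had 1 call without 3-week replicate 1 or 2, 9 without 3-week replicate 3, 10 without 8-week replicate 4, 2 or 3 without any 1 other treated library, and 1 without 3-week replicate 1 and 8-week replicate 6 together.

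The proteasome, which degrades ubiquitin-tagged proteins, had the highest share of called genes of any list, with 32 of 49 subunit genes lower, 0 higher and a median of -0.90. The ATPase subunit psmc3 (ENSDARG00000007141) had 57.6, 87.3, 39.1 and 65.0 CPM at 3 weeks and 15.9 to 25.4 CPM with a median of 20.8 at 8 weeks (-1.60 ± 0.24, adjusted p = 0.00118). The lid subunits psmd12 and psmd13 fell by 1.66 and 1.43 and the core subunit psma3 by 1.26. The 2 groups did not overlap for 33 of the 49 genes, against 11.3% of all genes. Leaving out 3-week replicate 2 left 20 calls, and leaving out 3-week replicate 1 and 8-week replicate 6 together left 19. With the length trend removed 24 were called. The liver change was below that of brain for 13 of the 49 genes, against 4.69% of all genes, and below that of skin for 3, against 1.9%. In skin itself 17 fell, against 6.33%.

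RNA processing genes fell alongside. Among 32 genes for small nuclear ribonucleoproteins and Lsm proteins, the core of the spliceosome, 19 fell and 0 rose, with a median of -0.78. The core protein gene snrpd1 (ENSDARG00000011648) had 19.3, 15.9, 8.88 and 14.5 CPM at 3 weeks and 1.75 to 3.19 CPM with a median of 2.51 at 8 weeks (-2.60 ± 0.25, adjusted p = 4.94e-05). Every 3-week liver was above every 8-week liver for this gene, and snrpe, snrpb2 and SNRPG fell by 2.06, 2.17 and 2.16. These genes too were short, with a median of 982.5 bp, and with the length trend removed 14 were called. Splicing factor 3 and serine-arginine factors had 11 falls in 24, heterogeneous nuclear ribonucleoproteins 7 falls and 1 rise in 27, and nuclear pore proteins 6 falls in 18. With the length trend removed they had 6, 4 and 5 falls. Medians of these families in control livers are given below. Without 3-week replicate 2 these families had 3, 3 and 2 falls, and without 3-week replicate 1 and 8-week replicate 6 together 3, 3 and 2. Splicing factor 3 and serine-arginine factors had 5 falls without 3-week replicate 1 and 7 without 8-week replicate 2 or 5, while the small nuclear ribonucleoproteins had 14 to 21 falls when any 1 treated library was left out and 12 without 3-week replicate 1 and 8-week replicate 6 together.

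In translation, 13 of 38 aminoacyl-tRNA synthetase genes fell, with WARS, tars and yars at -2.23, -2.29 and -1.89, and 13 of 66 initiation factor genes fell against 1 that rose. Over all genes 6.14% fell and 3.11% rose. The synthetases had 10 to 14 falls when any 1 treated library was left out and 8 without 3-week replicate 1 and 8-week replicate 6 together. The initiation factors had 5 and 6 falls without 3-week replicate 1 or 2, 8 without 8-week replicate 2 or 5, 6 with the length trend removed and 3 without 3-week replicate 1 and 8-week replicate 6 together. Ribosome biogenesis had 8 falls and 1 rise in 81, against 6.14% and 3.11% of all genes. Among the falls were the nucleolar proteins fbl and npm1a (-1.34 ± 0.30 and -1.79 ± 0.41), and the rise was that of rcl1. The falls numbered 3 without 3-week replicate 1 or 2, 4 without 8-week replicate 2 or 4, 5 without 3-week replicate 4 or 8-week replicate 1, 5 or 6, 4 with the length trend removed, and 1 without 3-week replicate 1 and 8-week replicate 6 together. Among cytosolic ribosomal proteins 0 of 82 were called, with 78 above 0 and a median of 0.12. In the mediator complex, which links transcription factors to RNA polymerase II, 3 of 29 genes rose and 3 fell, against 3.11% and 6.14% of all genes. Among those that fell was med24 (-1.85 ± 0.20), and the median of -0.07 changed sign with the length trend removed. Only 1 rise was called without 3-week replicate 1 or 2, and without 3-week replicate 1 and 8-week replicate 6 together 0 rises and 2 falls. Of the 9 genes of the chaperonin CCT 2 fell, against 6.14% of all genes, with a median of -0.60. No CCT gene was called without 3-week replicate 1, 2 or 4 or 8-week replicate 2 or 6, or with the length trend removed. Without 8-week replicate 1, 3, 4 or 5 there was 1 call.

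Cell cycle genes were lower at 8 weeks. Of 74 tested proliferation genes 20 fell and 0 rose, 69 were below 0, and the median was -1.24. Most of the called genes act in DNA replication: the helicase genes mcm2 to mcm6, the loading factors orc1, cdt1 and gins2, the clamp loader rfc4, the polymerase pole, the ligase LIG1, fen1, and the nucleotide enzymes rrm1, tyms and dhfr. The helicase gene mcm5 had 8.27, 9.64, 4.55 and 8.69 CPM at 3 weeks and 1.23 to 2.1 CPM with a median of 1.56 at 8 weeks (-2.21 ± 0.38, adjusted p = 0.0025). For mcm2 the levels were 9.29, 10.3, 5.12 and 10.2 CPM against 0.249 to 1.29 CPM (-3.32 ± 0.62, adjusted p = 0.00423). Levels were low in both groups, and neither gene overlapped between them. Without 3-week replicate 1, which held testis markers, 17 genes were called and the median was -0.82. Without 8-week replicate 6 18 were called, and without 3-week replicate 2 15. Leaving out 3-week replicate 1 and 8-week replicate 6 together left 9 calls and a median of -0.68. In the 12-month controls the median was -1.65 and in the 36-month controls -0.39, or -1.54 without their 8-week replicate 3. Among p53 targets and apoptosis genes 3 of 44 rose, namely btg1, tnfrsfa and mdm2, against 3.11% of all genes. Only 1 was called without 3-week replicate 1 or 2 and without 3-week replicate 1 and 8-week replicate 6 together.

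Antioxidant genes fell in part, with 9 of 45 lower and 0 higher and a median of -0.38. The peroxiredoxin gene prdx1, whose product removes hydrogen peroxide, had 89.56, 162.4, 100 and 76.1 CPM at 3 weeks and 1.37 to 10.3 CPM with a median of 5.84 at 8 weeks (-4.14 ± 0.47, adjusted p = 0.000202). The groups lay wide apart, and the fall exceeded that in brain (adjusted p = 2.70e-05) and in skin (adjusted p = 0.000608). Its recycling partners srxn1, txn and txnrd1 fell by 1.46, 1.66 and 1.2. Without 3-week replicate 2 the list had 5 falls, as it did without 3-week replicate 1 and 8-week replicate 6 together.

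Amino acid stress and one-carbon genes had 7 falls and 1 rise in 35. The glutathione-degrading enzyme chac1, a target of the transcription factor Atf4, had 235, 148, 462 and 559 CPM at 3 weeks and 39.7 to 161.7 CPM at 8 weeks (-2.10 ± 0.40, adjusted p = 0.00476), with an overlap of 3-week replicate 2. The serine synthesis genes psat1 and phgdh fell by 1.88 and 2.36, and the list had between 3 and 7 falls when any 1 treated library was left out and 2 without 3-week replicate 1 and 8-week replicate 6 together. Xenobiotic metabolism genes handle foreign compounds. Against shares of 3.11% higher and 6.14% lower over all genes, they had 4 rises and 2 falls in 65. They numbered 2 rises and 0 falls without 3-week replicate 1 or 2, the falls were 0 without 3-week replicate 4 or 8-week replicate 1 and with the length trend removed, and 1 rise and 1 fall were left without 3-week replicate 1 and 8-week replicate 6 together. The cytochrome P450 gene cyp2aa1 rose from 4.25, 3.74, 5.4 and 4.88 CPM to between 11.6 and 17.4 CPM (1.64 ± 0.22, adjusted p = 0.000421).

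Clock genes split in direction, with 3 of 45 higher and 4 lower, against 3.11% and 6.14% of all genes. The repressor nr1d1 (ENSDARG00000033160), known as Rev-erb alpha, had 16.5, 7.97, 17.6 and 21.3 CPM at 3 weeks and 0.943 to 2 CPM with a median of 1.75 at 8 weeks. It fell by 3.25 ± 0.32 (adjusted p = 5.54e-05), and no 8-week liver came near a 3-week liver. In the fit over all tissues nr1d1 also fell in skin (-2.90 ± 0.36, adjusted p = 3.72e-07), but not in brain (0.28 ± 0.33). Its liver change differed from brain (adjusted p = 4.13e-06) and not from skin (-0.29 ± 0.50, adjusted p = 0.854). The gene per1a fell in skin too (-1.27 ± 0.38, adjusted p = 0.0273). The period genes per1b and per1a fell by 1.70 and 2.45 and the output factor dbpa by 1.47. The repressor gene nfil3-5 rose from 25.6, 22.3, 12.6 and 11.8 CPM to between 42.0 and 117 CPM (2.18 ± 0.37, adjusted p = 0.00216), together with cry2b (0.98 ± 0.17) and clock (1.43 ± 0.37). The hour of sampling is not given in the labels.

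Interferon genes had 4 falls in 59, a share of 6.78% that was close to the 6.14% of all genes. Those that fell were mxa, mxb, mov10b.1 and stat1b, which are antiviral effectors and a signal transducer. For mxa the levels were 30.6, 5.1, 1.47 and 9.28 CPM at 3 weeks and 0.978 to 2.66 CPM at 8 weeks (-2.81 ± 0.67, adjusted p = 0.0148), with 3-week replicate 1 the highest and replicate 3 within the 8-week range. Without 3-week replicate 1, alone or together with 8-week replicate 6, the list had 0 calls, without any 1 other treated library 2 to 5, and for stat1b the adjusted p without 3-week replicate 1 was 0.57.

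Hormone signalling changed at few points, with 2 of 44 genes of the growth hormone, Igf and insulin pathways higher, against 3.11% of all genes. The glucagon receptor copy GCGR (2 of 2) went from 2.41 to 6.18 CPM at 3 weeks to between 14.2 and 32.5 CPM (2.09 ± 0.42, adjusted p = 0.00652). The other was the mTOR inhibitor tsc2 (0.73 ± 0.19). Without 3-week replicate 1 or 4 or 8-week replicate 5 only 1 was called. Glucocorticoid-responsive genes had 1 rise and 1 fall in 30 (tat and per1a), against 3.11% and 6.14% of all genes. They had 0 rises without 3-week replicate 2, 3 or 4 or 8-week replicate 5. No call was made among 39 immediate early genes (0 of 39), whose median of -0.05 changed sign with the length trend removed. Nor was there a call among 13 egg-yolk and estrogen-responsive genes (0 of 13), of which 10 had values below 0, with a median of -1.21. Yolk precursor gene vtg5 stood at 38.6 to 319.7 CPM at 3 weeks and at 18.3 to 57.4 CPM at 8 weeks (-2.34 ± 0.88, adjusted p = 0.11), and vtg7 at 1.11 to 4.51 CPM and then 0.347 to 0.968 CPM, without overlap (-2.10 ± 0.90, adjusted p = 0.164). The gene with the smallest p of this list had a value above 0, vtg2, at 0.0927 to 1.86 CPM and then 0.991 to 39.2 CPM (4.09 ± 1.38, adjusted p = 0.0745). Of markers of other cell types, the iron exporter slc40a1 of the macrophage list rose (1 of 38; 2.05 ± 0.50), as did hnf1ba of the biliary list (1 of 22), and insl3 of the testis list fell (1 of 19). The call for slc40a1 was not made without 3-week replicate 1, 2 or 4. No biliary gene was called in 9 of the 10 fits that left out 1 treated library (3 were without 3-week replicate 3), with no filter, or with only the groups of the contrast fitted. No testis gene was called without 3-week replicate 1 or 2, or any 1 of 8-week replicates 1 to 5, whereas 4, 2 and 3 were called without 3-week replicate 3, 3-week replicate 4 and 8-week replicate 6. All 19 of the 19 testis genes had values below 0, with a median of -3.04, which was 0.41 without 3-week replicate 1. No marker was called for endocrine pancreas, intestine, erythrocytes, neutrophils, T and NK cells, B and plasma cells, endothelium and stellate cells, or skeletal muscle. The endocrine pancreas median of -0.10 was 4.04 without 3-week replicate 2 and -3.62 without 8-week replicate 2.

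The largest rises with no overlap between the groups were otherwise of genes in no list. The highest was ANO2 (2 of 2), described in the gene table as an anoctamin, a family of calcium-activated chloride channels, which was at most 0.175 CPM at 3 weeks and 0.967 to 23.8 CPM at 8 weeks (6.43 ± 1.19, adjusted p = 0.00443). The homeobox gene nkx6.3 and the calcium-dependent kinase camk1ga rose by 3.72 and 3.37, both from under 1.1 CPM. An RNA-binding protein gene, PCBP4, had 3.58, 2.21, 0.961 and 2.26 CPM at 3 weeks and 6.91 to 34.6 CPM at 8 weeks (3.00 ± 0.52, adjusted p = 0.00259). Its change differed from brain and from skin (3.23 ± 0.41 and 3.35 ± 0.41). The glycogen primer gyg2 rose by 2.72 ± 0.55, the guidance receptor robo2 by 2.60 ± 0.39 and the ring finger gene rnf24 by 2.37 ± 0.54. Among the largest falls, pmm2, an enzyme of protein glycosylation, had 13.1, 19.4, 5.64 and 19.3 CPM at 3 weeks and 0.213 to 1.52 CPM at 8 weeks (-4.20 ± 0.58, adjusted p = 0.000684).

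Control livers were examined for the same interval, to ask which of these differences also arose without rotenone. In 36-month controls 0 of 20190 genes were called (0%), with 3338 at an unadjusted p under 0.05, 748 called by DESeq2 and 0 by limma's voom with sample weights. Without 3-week replicate 1 of these controls 1502 genes were called, and without 8-week replicate 3 29 were called. In 12-month controls 530 genes were called (2.63%), 375 higher (1.86%) and 155 lower (0.768%), and this share was 0.0139 to 0.923% when any 1 of these livers was left out (lowest without 3-week replicate 1). Of these 530 genes 143 were also among the 1867, which is 27% of the first list and 7.66% of the second, and 142 of the 143 had the same direction. These control livers share no library with the treated ones. In 36-month controls without 8-week replicate 3, 33 of 34 exocrine pancreas markers were below 0, with a median of -3.16.

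Many genes called in treated liver leaned the same way in controls. Of the 628 that rose 474 were above 0 in 36-month controls (75.5%, against 51.8% of all genes) and 555 in 12-month controls (88.4%, against 50.4%). Of the 1239 that fell 1032 were below 0 in 36-month controls (83.3%, against 48.1%) and 1056 in 12-month controls (85.2%, against 49.4%). Without 8-week replicate 3 of the 36-month controls, a choice made after the values were seen, 497 of the rises (79.1%, against 46.9%) and 952 of the falls (76.8%, against 52.8%) leaned that way, with medians of 0.40 and -0.40. The sizes were smaller there. The median log2 fold change of the rises was 0.95 with rotenone, 0.31 in 36-month and 0.61 in 12-month controls, and that of the falls was -1.27, -0.56 and -0.48. These genes were selected by their treated values. Across all genes the correlation with the treated change was r = 0.147 (Spearman's rho 0.232) for 36-month and r = 0.276 (0.354) for 12-month controls, as a description over genes, which are not independent.

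Single genes behaved in different ways. Glucokinase had 24.6 and 4784 CPM in the 36-month controls at 3 weeks and 107, 54.0 and 0.516 CPM at 8 weeks, a difference of -5.48 ± 1.84 that was near the treated one. The high 3-week level came from 1 library alone, and the other 3-week control, at 24.6 CPM, lay below the 107 and 54.0 CPM at 8 weeks. The lowest value came from 8-week replicate 3, the library with intestinal markers. Fatty acid synthase had 400.3 and 349 CPM and then 377, 173 and 8.39 CPM, a difference of -1.01 ± 1.17 against -4.74 in treated liver. The difference between those changes was -3.73 ± 1.57 (adjusted p = 0.357) and did not pass. For hspa4a the control levels went from 96.8 and 601 CPM to 36.9, 39.5 and 16.6 CPM (-3.49 ± 0.73). For cpt1b they went from 278 and 249 CPM to 674, 739 and 125 CPM (0.96 ± 0.82). Without replicate 3 the control changes were -4.82 ± 1.84 for gck, -0.41 ± 1.07 for fasn, -3.11 ± 0.81 for hspa4a and 1.47 ± 0.79 for cpt1b. The control median over the cholesterol genes was -0.91 at 36 months and 0.53 at 12 months, and over the proteasome genes -0.40 and -0.45. Without replicate 3 the 36-month values were -0.57 and -0.12. In that setting the 36-month median was -0.74 for nuclear pore proteins, -0.38 for heterogeneous nuclear ribonucleoproteins and -1.29 for ribosome biogenesis. The treated medians were -0.49, -0.36 and -0.44. Control medians were smaller in size for small nuclear ribonucleoproteins (-0.47 against -0.78) and splicing factor 3 and serine-arginine factors (-0.23 against -0.40). The 3-week controls were uneven, with nuclear pore sums of 287.1 and 617.3 CPM.

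**Figure D5:**
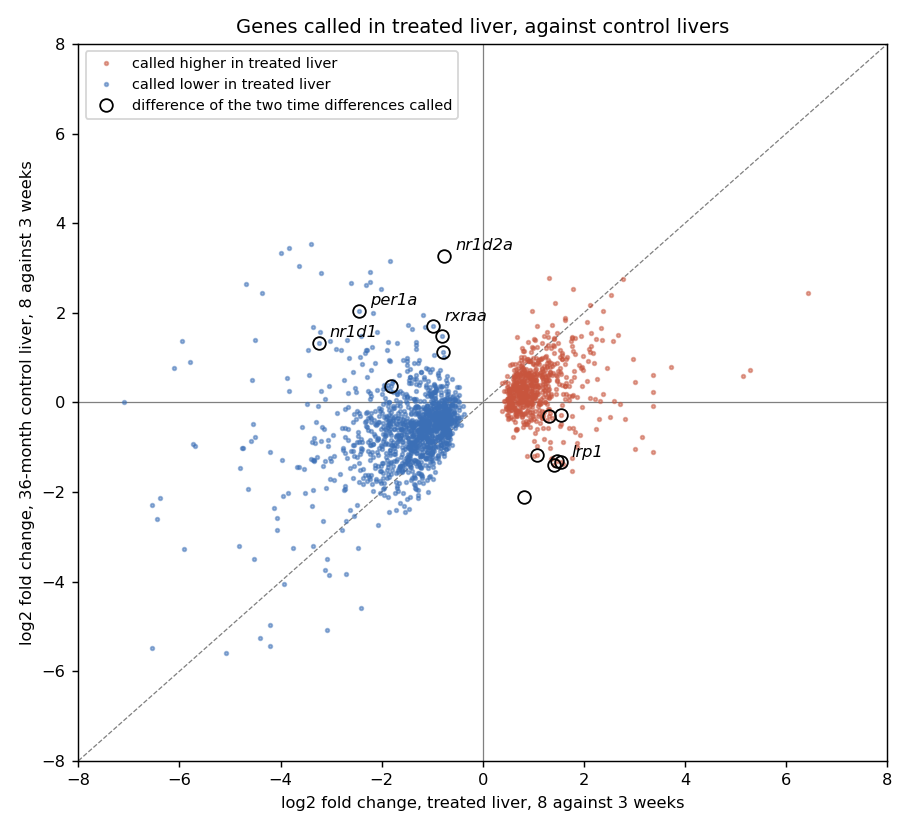
Log2 fold change of 8 over 3 weeks in 36-month control liver (vertical axis) against that in treated liver (horizontal axis) for the 1867 genes called in treated liver and for nr1d2a and THBD, with rises in red and falls in blue. Black circles mark the 14 genes whose treated and control changes differed, and the dashed line is equality; 474 of the 628 rises lie above 0 in controls, and nr1d1 lies at -3.25 in treated and 1.34 in control liver.

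The treated change differed from the 36-month control change for 14 genes (0.0693%), 7 with a higher and 7 with a lower change under rotenone (0.0347% each), while 2410 had an unadjusted p under 0.05. The clearest was nr1d1. Its control livers had 7.59 and 16.1 CPM at 3 weeks and 32.4, 38.8 and 18.7 CPM at 8 weeks, so that it stood higher at 8 weeks in controls and lower in treated fish (difference -4.58 ± 0.59, adjusted p = 0.0131). All 3 of these 8-week controls lay above all 6 of the 8-week treated livers. Its paralogue nr1d2a and the period gene per1a were also in the set, with differences of -4.04 and -4.50. For nr1d2a the control change was 3.27 and the treated change, -0.77, did not pass the test (adjusted p = 0.21).

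The endocytic receptor lrp1 had 132, 128, 153 and 173 CPM in treated liver at 3 weeks and 274 to 792 CPM at 8 weeks, while controls went from 281 and 213 CPM to 118, 89.9 and 86.4 CPM (difference 2.87 ± 0.45, adjusted p = 0.0323). The scavenger receptor scarf1, the transferrin receptor copy TFR2 (2 of 2) and thrombomodulin THBD had differences of 2.24, 2.77 and 2.93, and the nuclear receptor rxraa of -2.67. For THBD the control change was -2.12 and the treated change, 0.81, did not pass the test (adjusted p = 0.104). In 12-month controls scarf1, TFR2 (2 of 2), THBD and rxraa changed by 0.02, -1.32, -0.02 and -0.0077. The oxidase gene rnls, or renalase, had 6.99, 10.1, 7.97 and 9.74 CPM and then 1.8 to 2.92 CPM in treated liver, against 4.63 and 6.34 CPM and then 6.41 to 7.65 CPM in controls (difference -2.16 ± 0.31, adjusted p = 0.0226). The kinase DAPK1 and the scaffold gene dlg5a had lower changes with rotenone than in 36-month controls (differences -2.30 and -1.90). ANKRD50 (1 of 2), RALGAPA2 and FP236606.1 had higher ones (1.6, 1.83 and 2.79). Such a difference does not tell whether the treated or the 36-month control livers departed from the 12-month controls. With controls of both ages given equal weight, 9 genes of the set kept their call and 5 lost it. FP236606.1 and TFR2 (2 of 2) ran in parallel, with 4.86, 4.17, 3.87 and 3.46 CPM against 12, 10.6, 10.4 and 9.31 CPM in treated liver at 3 weeks. They may not be separate findings, and whether they share reads was not tested. None of the fatty acid, cholesterol, proteasome or heat shock genes passed this test (0 of 37, 0 of 32, 0 of 49 and 0 of 36). Both 3-week control livers used in it were rich in exocrine pancreas markers. The test rests on 2 control livers at 3 weeks, and leaving out the second of them left 0 calls. Leaving out the first left 45, and leaving out 8-week control replicate 1, 2 or 3 left 4, 4 and 69.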

How the data were processed

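RNA from brain, liver and skin was extracted with QIAzol and made into Illumina TruSeq libraries, per the labels' protocols. The authors deposited a table of raw counts per gene and a table of RPKM values for 68 libraries. CASAVA 1.8.2 is the only upstream tool in the submitters' processing notes, and the aligner, counter, genome build and use of strand were not given in the sources used here, so that overlapping and antisense genes cannot be told apart. The RPKM values deposited by the authors were used only to recover gene lengths (30932 genes).

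Counts were tested with edgeR 4.0.16 in R 4.3.3 (TMM scaling, filterByExpr with a minimum count of 10 and total of 15, robust quasi-likelihood F-test) in 1 fit over 20 livers in 6 groups, so that all groups shared 1 estimate of the spread, and with Benjamini-Hochberg adjustment at 0.05. Standard errors were derived from the F statistics. Differences between tissues came from 1 fit over all 68 libraries in 18 groups, and fish numbers in the labels tie the tissues of a fish together: 9 of 10 treated livers correlated best with their own fish's brain and 10 of 10 with its skin. DESeq2 1.42.0 and limma 3.58.1 were alternatives. P-values measure the spread between the sampled fish, and tanks were not separable. Depth was 28710443 to 47257891 counts per liver. Among 21 pairs of treated replicates none agreed within sampling noise (chi-square per gene 77.63 to 330.6).

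Genes named were the 12 largest rises and falls among called genes with a symbol, a mean of at least 1 CPM and no overlap between the groups, and the 4 members of each list with the smallest p. Further called members of lists were named after their values were seen. Members and lists were chosen with earlier results of these data known. On simulated data with the real means and library sizes, the treated comparison recovered 58% of 100 genes changed 4-fold and 13% of 100 changed 2-fold, with 4 false calls among 19990 unchanged genes. Fewer genes were changed there than were called in the real data, and no simulated library held other tissue. These rates therefore need not hold for the real comparison. Some members of the lists are counted but not reported singly here.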

Additional observations from a re-analysis of the deposited data

Results flagged for a closer look

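In groups of 4 to 6 livers, a sample was picked out where its gap to the nearest other exceeded Dixon's critical value, which chance exceeds in about 1 in 20 groups. Of 210 groups 15 met this (7.143%). Among genes at 3 weeks, C7 (1 of 2) was low in replicate 2 at 17.72 CPM (others 73.94 to 92.15), per1a was low in replicate 3 at 1.644 CPM, and pgd was high in replicate 2 at 672.2 CPM. At 8 weeks replicate 4 stood apart for C7 (1 of 2) at 3222 CPM, nr1d1 at 0.9425, cyp27a1.3 at 19.87, apoa4 at 483.3 (others 2219 to 4045), cox6a1 at 36.61 and derl2 at 7.782 CPM. Replicate 5 was low for camk1ga at 1.371 CPM and replicate 1 for ALDH1L2 at 0.1559 CPM. Among marker shares, testis markers were high in 3-week replicate 1 at 0.01643% and in 8-week replicate 6 at 0.001602%, B and plasma cell markers in 3-week replicate 3 at 0.01924%, and skeletal muscle markers in 8-week replicate 2 at 0.005602%.

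The change from 3 to 8 weeks differed between treated and 36-month control livers for 14 genes, by edgeR's test of the difference itself. The log2 differences were -4.58 for nr1d1, -2.16 for rnls, -2.30 for DAPK1, 2.87 for lrp1, 1.6 for ANKRD50 (1 of 2), -1.90 for dlg5a and 1.83 for RALGAPA2. They were 2.24 for scarf1, 2.79 for FP236606.1, -2.67 for rxraa, -4.04 for nr1d2a, -4.50 for per1a, 2.77 for TFR2 (2 of 2) and 2.93 for THBD. The treated change in liver differed from that in brain for 2308 genes and from that in skin for 1031.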

How the results depend on the processing

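The 1867 calls in treated liver became 2975 with DESeq2 and 3203 with voom, and 795 to 2252 when 1 library was left out. Without 8-week replicate 6 and 3-week replicate 1 together, an alternative chosen after seeing the data, 596 were called. With the replicate number as a block 142 were called (35 higher, 107 lower); same-numbered treated livers did not deviate together (correlations -0.009, -0.136, 0.054 and 0.019), so the numbers do not pair them. The 0 calls in 36-month controls became 748 with DESeq2 and 0 to 1502 when 1 library was left out. The 530 calls in 12-month controls, 2.63% of genes tested, became 1.07% with no filter, 7.69% with DESeq2, 7.43% with voom, 0% with the replicate block and 0.0139 to 0.923% when 1 library was left out. The 14 differences from 36-month controls became 406 with DESeq2, 9 with voom, 2 with only the groups of the contrast fitted, 0 with the replicate block, 6 with the length trend removed, 42 without 8-week replicate 6 and control 8-week replicate 3, 3 without 8-week replicate 6 and 3-week replicate 1, and 0 to 69 when 1 library was left out. The causes were not tested. Differences from brain (1645 to 2815 when 1 liver was left out) and skin (608 to 1507) stayed within 1.5 times under other scaling, filters, voom and fish as a block (2534 and 965). RLE scaling changed the split for skin from 543 higher and 488 lower to 406 and 594. The pancreas share difference ran from -0.897 to 1.13 when 1 library was left out, and was below 0 in 5 cases (-0.897, -0.145, -0.015, -0.19 and -0.69). Over 107 named genes and 26 alternatives, 2130 log2 values kept their direction, of which 428 lost their call and 16 gained one; the replicate block accounted for 83 of the lost calls. Depth limits genes near 1 CPM, and 2 to 6 fish per group limit every comparison.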
